A study of Homo sapiens with 6 samples.

Results

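The ZNF genes of chromosome 19 were taken as every row of the deposited gene tables that lies on this chromosome and is named ZNF, a number and at most 1 letter. The rule found 267 of 57820 rows, with 261 different names, since ZNF177, ZNF223, ZNF709, ZNF763, ZNF788 and ZNF8 have 2 rows each. RNA-seq was done on untreated AID-DIvA cells, an osteosarcoma line derived from U2OS that carries the restriction enzyme AsiSI, whose nuclear entry was not induced here. Each genotype, WT and ARID1A-KO, was represented by 3 samples, which the labels number from 3 to 5. ARID1A is a DNA-binding subunit of the BAF chromatin remodelling complex, and the knockout was made with Cas9 and 2 guide RNAs, after which knockout clones were established. How many clones were sequenced is not given in the sources used here, so the effect of the deletion and differences between a clone and its parent line cannot be told apart. The labels give only replicate numbers, while the study calls the experiments behind its expression analysis biological replicates, and p-values measure the spread between these samples.

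C2H2 zinc finger proteins bind DNA through arrays of short fingers, each folded around a zinc ion, and the choice of residues in the fingers sets the sequence that is bound. Most of those encoded on chromosome 19 carry a KRAB box near the N-terminus, which recruits the corepressor TRIM28 and, through it, the H3K9 methyltransferase SETDB1, HP1 proteins and DNA methylation. The genes arose by repeated local duplication and lie in clusters, and many of the proteins bind and silence retrotransposons.

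Total reverse-stranded counts per sample were between 54512105 and 84088708, of which the ZNF genes of chromosome 19 took between 0.266% and 0.298%. ARID1A itself was at 173 ± 6.67 CPM (mean ± SD, n = 3) in WT samples and at 25.9 ± 1.38 CPM in the knockout. Of the bone markers, SPARC was at 690 and 377 TPM, SPP1 at 77.7 and 28.7 TPM, RUNX2 at 8.04 and 7.95 TPM, ALPL at 14.1 and 2.61 TPM and BGLAP at 0.485 and 0.486 TPM in WT and ARID1A-KO cells. COL1A1 was at 200 ± 3.86 TPM and 146 ± 31.6 TPM, whereas COL1A2, SP7 and IBSP stayed under 0.1 TPM in both genotypes. Markers of T cells, melanocytes and liver (CD3E, SOX10 and ALB) were also under 0.1 TPM, while the epithelial markers EPCAM and CDH1 were at 9.0 and 0.897 TPM in WT and 12.4 and 0.391 TPM in ARID1A-KO cells. The leukocyte marker PTPRC was at 1.01 and 0.235 TPM, the neuronal marker MAP2 at 3.75 and 6.0 TPM and the endothelial marker CDH5 at 0.217 and 0.317 TPM, and their part in the results was not tested.

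Ordered by start position and divided wherever more than 1 Mb separated neighbours, the ZNF genes fell into 10 clusters, and 9 genes stood alone or in pairs. In GRCh37 coordinates of chromosome 19, cluster 1 (5 genes) spans 2.82 to 2.94 Mb, cluster 2 (17) 7.07 to 9.90 Mb and cluster 3 (30) 11.59 to 12.75 Mb. Cluster 4, with 41 genes over 19.78 to 24.31 Mb, is the one next to the centromere. Cluster 5 (6 genes) spans 35.03 to 35.45 Mb, cluster 6 (26) 36.67 to 38.31 Mb, cluster 7 (3) 40.49 to 40.60 Mb and cluster 8 (26) 44.03 to 45.58 Mb. The largest, cluster 9 (43 genes, 52.07 to 54.08 Mb) and cluster 10 (61 genes, 55.99 to 58.99 Mb), lie towards the end of the long arm.

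A complete coding sequence was matched for 246 of the 267 rows. The proteins they encode have a median of 12 fingers, from 0 in ZNF321P to 36 in ZNF208, and 212 of the 246 contain a KRAB A box. The 34 without one include 14 of the 57 proteins of cluster 10, and only 1 of the 40 proteins of cluster 9. Promoter sequences (250 bases before to 50 after the start) were found in RefSeq for 218 genes. Their median of 20 CpG dinucleotides stood beside 21 for protein-coding genes as a whole and 23 for ZNF genes of other chromosomes. The ETS-family motif CCGGAAGT, searched on both strands, was present in 20.6% of them, against 5.34% of protein-coding promoters, 4.14% of all promoters and 12.2% of those of ZNF genes elsewhere. The shares holding the SP1 motif GGGCGG were 68.3% for chromosome 19 ZNF promoters and 56.3% for protein-coding promoters, and those for the YY1 motif ATGGCGGC were 5.50% and 3.91%. The SP1 and YY1 motifs can share bases, both were searched on both strands, and a match is only a match of letters.

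Most of the ZNF genes were transcribed in these cells, and levels were lowest in the pericentromeric cluster. Per-length levels are given as deposited TPM. Over the 6 samples, 196 of the 267 rows had a mean TPM of at least 1, 56 were above 0 but below 1, and 15 had no count in any sample, with a median of 5.84 TPM over all. Of these 15, 9 overlap another gene on the same strand, where reads can be left uncounted. A library with 0 counts allows a level of up to 0.0357 to 0.055 CPM (3 counts), and this covers counting error only. In cluster 4 the median was 0.0119 TPM, 12 of 41 genes had a mean TPM of at least 1, 9 had no count at all, and no gene exceeded the 3.71 TPM of ZNF101. ZNF43, ZNF66, ZNF99, ZNF676 and ZNF723 of this cluster were at 0 in every sample, though ZNF66 overlaps another gene on the same strand. There, 26 of 41 genes (63.4%) had too few counts to be tested, against 26 of 226 (11.5%) elsewhere. In the same cluster ZNF91, a repressor of SVA retrotransposons, was at 1.29 TPM, whereas ZNF93, a repressor of LINE-1 elements, was at 0.00583 TPM. ZNF93 also overlaps another gene on the same strand, so that its low value is uncertain. Cluster 3 was intermediate, with a median of 1.41 TPM, and the medians of the other clusters were between 4.31 and 13 TPM.

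**Figure D1:**
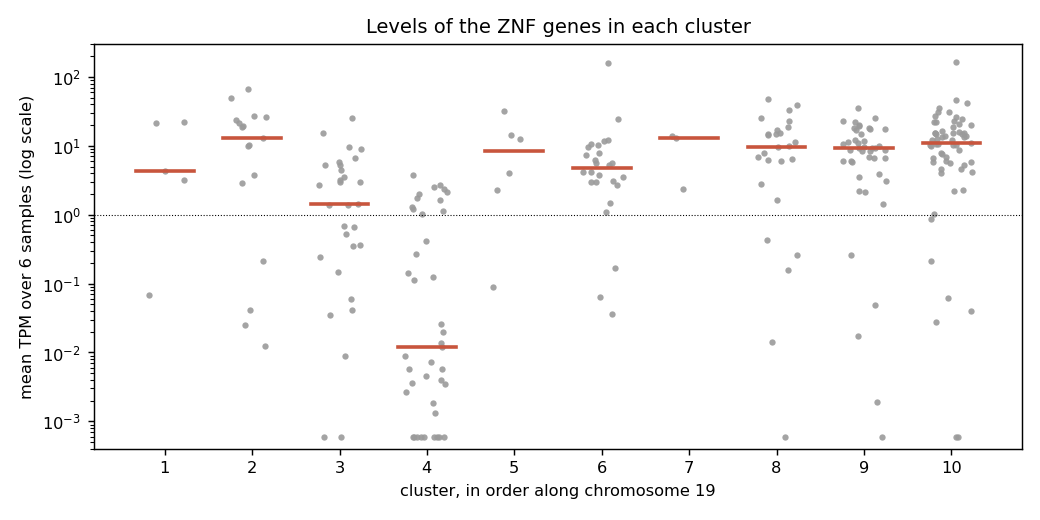
Mean TPM over the 6 samples (log scale) of each ZNF gene, by cluster in chromosome order; lines are cluster medians and genes under 0.001 TPM are drawn at the bottom. Cluster 4 has a median of 0.0119 TPM while the clusters on the long arm from cluster 5 on have medians of 4.69 TPM or more.

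The 5 genes with the highest mean TPM included 3 that did not pass the test between genotypes. ZNF542, now annotated as a pseudogene, was at 140 ± 13.5 TPM in WT and 186 ± 9.66 TPM in ARID1A-KO cells. ZNF146, which encodes a protein made almost entirely of fingers, was at 157 and 161 TPM. They were followed by ZNF121 (78.7 and 54.2 TPM), ZNF317 (51.7 and 46.8 TPM) and ZNF428 (49.1 and 47.1 TPM). ZNF146, ZNF317 and ZNF428 did not pass the test between genotypes, with adjusted p of 0.808, 0.1 and 0.626 from edgeR's quasi-likelihood test. Reads of the 6 names with 2 rows, and of genes that overlap on the same strand (114 rows share some span with another gene), can be left uncounted, so low values of these rows are uncertain. The ZNF8 rows, both at 0, are an example.

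Of the 267 rows, 215 passed the filter on low counts and were tested, and 61 of these were called at an adjusted p under 0.05, 33 higher and 28 lower in ARID1A-KO cells. This is 28.4% of those tested, while the background over all 19599 tested genes was 36.2% (17.8% higher and 18.4% lower). Of the other 1110 tested genes of chromosome 19, 45.05% were called, 261 higher and 239 lower. ZNF genes of chromosome 19 were thus called no more often than genes in general or the other genes of their chromosome. Their median log2 fold change was 0.035, beside 0.0066 for all genes, and the CPM of the genotypes did not overlap for 51.2% of them and for 49.5% of all genes. Over all 19599 tested genes, 953 were called with a rise and 1160 with a fall of 2-fold or more. Of the 215 tested ZNF genes, 4 were called with such a rise and 5 with such a fall. They were ZNF730, ZNF812, ZNF114 and ZNF235 on one side and ZNF229, ZNF585B, ZNF404, ZNF382 and ZNF699 on the other. ZNF788, at a log2 fold change of -1.04, was not called. In bulk RNA, fewer transcribing cells and less RNA per cell cannot be told apart. Of the 61 calls, 36 held in each of the 6 refits that left out 1 sample, and among genes named here those of ZNF30, ZNF331, ZNF433, ZNF546, ZNF627, ZNF701, ZNF726, ZNF835 and ZNF850 did not. The number called higher was 21 without WT replicate 5 and also 21 without ARID1A-KO replicate 3. When the median change of the other genes within 5 Mb was taken off, the calls split into 17 higher and 41 lower. The 251 tested ZNF genes of other chromosomes included 56 called higher and 26 called lower (median log2 fold change 0.094). Of the 12 tested ZFP, ZSCAN, ZIM, ZIK, ZKSCAN and ZBTB genes of chromosome 19, 2 were higher and 2 lower.

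Arranged along the chromosome, the calls were not mixed evenly. On the short arm, most ZNF genes of clusters 2 and 3 were lower in ARID1A-KO cells, and towards the end of the long arm most were higher. In cluster 1, nearest the start of the short arm, 2 of 4 tested genes had a positive and 2 a negative log2 fold change. In clusters 2 and 3 together, 34 of 38 tested genes had a negative log2 fold change, with a median of -0.28, 12 were called lower and 2 higher. Of these 12, 8 lie in cluster 2 (14 tested) and 4 in cluster 3 (24 tested). In clusters 9 and 10 together, 77 of 95 had a positive one, with a median of 0.18, 25 were called higher and 3 lower. The shares called in either direction were 36.8% in clusters 2 and 3 and 29.5% in clusters 9 and 10, beside 36.2% of all tested genes. Of 198 pairs of tested neighbours within a cluster, 138 (69.7%) had log2 fold changes of the same sign. The share for neighbouring pairs of other genes was not taken, so this is not read as a trait of ZNF genes.

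**Figure D2:**
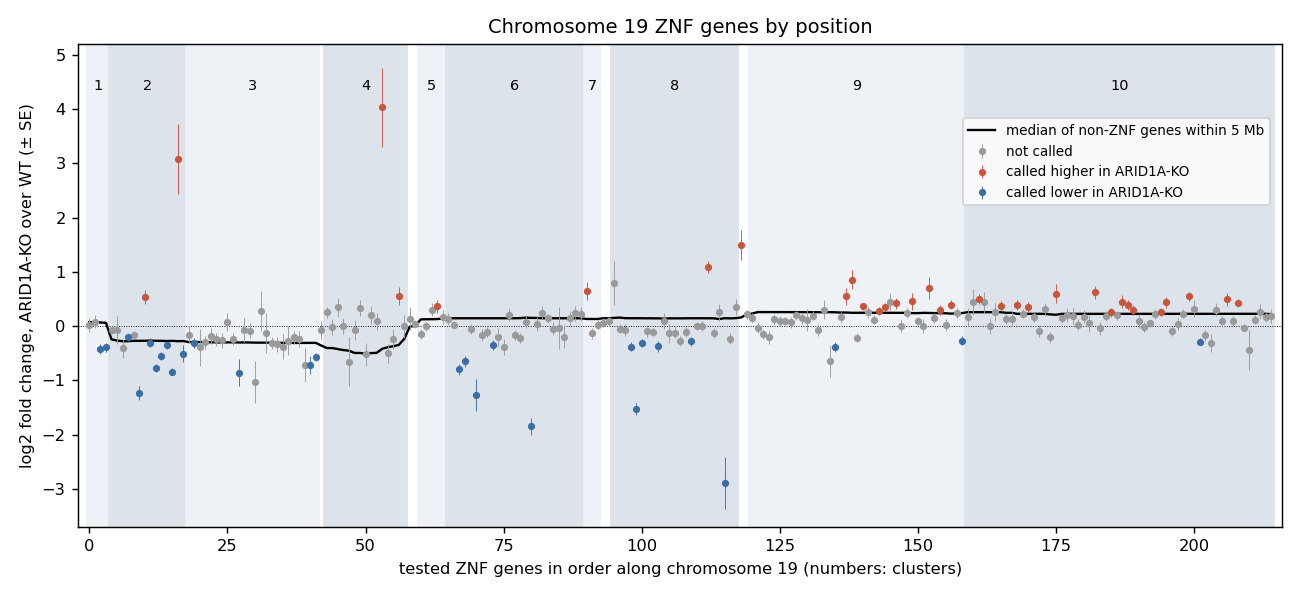
Log2 fold change of ARID1A-KO over WT (± SE) of the 215 tested ZNF genes in order along chromosome 19; shading and numbers mark clusters, colours mark calls, and the black line is the median of the other tested genes within 5 Mb. Lower calls were densest in cluster 2 (8 of 14 tested genes), with 2 of 4 in cluster 1, 4 of 24 in cluster 3, 5 of 25 in cluster 6 and 6 of 23 in cluster 8. Most higher calls lie in clusters 9 and 10. In clusters 2, 9 and 10 these calls are on the side to which the line deviates.

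The shift was visible in each sample. For every gene the difference from its WT mean on the log2(CPM + 0.5) scale was taken, and the median over a cluster was read in each sample. In cluster 2 the WT medians were 0.04, 0.01 and -0.05, and the ARID1A-KO medians were -0.39, -0.30 and -0.24. Those of cluster 3 were 0.05, 0.03 and -0.06 in WT and -0.25, -0.24 and -0.16 in ARID1A-KO cells. Every ARID1A-KO sample was thus below every WT sample in both. In cluster 10 the order was the opposite, with -0.0024, 0.01 and -0.02 in WT and 0.17, 0.21 and 0.15 in ARID1A-KO cells. Cluster 9 gave 0.07, 0.0035 and -0.08 in WT and 0.17, 0.13 and 0.12 in ARID1A-KO cells, a gap that is narrow beside the spread of WT. The genotypes overlapped in clusters 4, 5, 6 and 7.

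**Figure D3:**
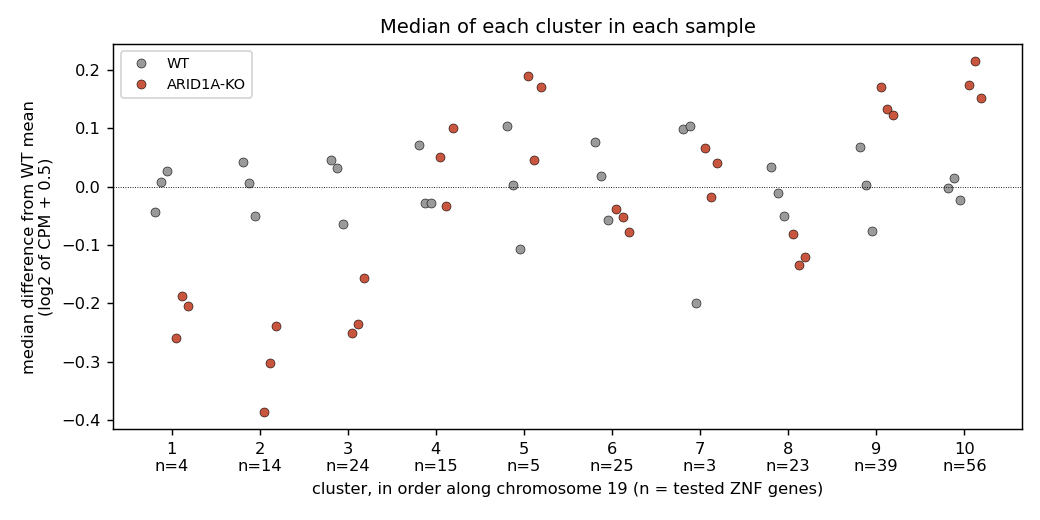
Median over the tested ZNF genes of each cluster of the difference from the WT mean, as log2 of CPM + 0.5, with 1 point per sample; the 3 WT values of a cluster scatter around 0 by construction. All ARID1A-KO points lie below all WT points in clusters 1, 2, 3 and 8, and above them in clusters 9 and 10.

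In clusters 2, 3, 9 and 10, genes that are not ZNF genes but lie within the same bounds had medians of the same sign. Inside cluster 2, the median log2 fold change was -0.28 for the 42 other tested genes, beside -0.33 for its ZNF genes, with 15 called lower and 1 higher. Inside cluster 3 the values were -0.24 for 10 other genes and -0.27 for the ZNF genes. In cluster 9 they were 0.23 for 17 other genes and 0.15 for the ZNF genes, and in cluster 10 they were 0.15 for 58 other genes and 0.18 for the ZNF genes. Of these other genes, 0 were called higher and 3 lower in cluster 3, 3 and 0 in cluster 9, and 9 and 4 in cluster 10. Over all tested genes, 17.8% were called higher and 18.4% lower. Over the 215 tested genes, the log2 fold change of a ZNF gene and the median of the other genes within 5 Mb correlated with a Pearson's r of 0.14 and a Spearman's rho of 0.41. This is a description across genes, since neighbouring points share most of their windows and all share the same 6 samples. Inside the bounds of clusters 4, 6 and 8, the other genes had medians of -0.0035, -0.14 and -0.31. In clusters 6 and 8 these had the sign of the ZNF medians. For the window of 5 Mb, the match did not hold everywhere. Around cluster 4 the median of the neighbours went down to -0.51 while its ZNF genes had a median of 0.0042, and in clusters 6 and 8 it was above 0 (0.15 at ZNF585B and 0.14 at ZNF404) while the ZNF medians were -0.060 and -0.11. With that median taken off, the medians of clusters 2, 3, 9 and 10 became -0.057, 0.040, -0.092 and -0.039, and 32 of the 61 calls kept their direction and their side of the threshold, 21 of the 28 lower and 11 of the 33 higher. Copy number was not measured in these files and its part in the regional shifts was not tested.

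**Figure D4:**
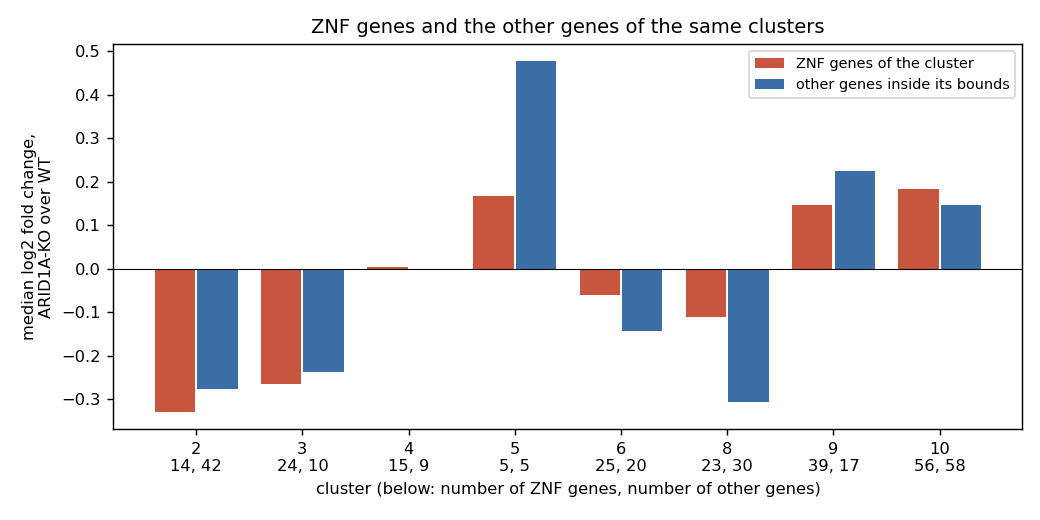
Median log2 fold change of ARID1A-KO over WT of the tested ZNF genes (left bars) and of the other tested genes inside the bounds (right bars) of each cluster with at least 5 other genes; the numbers of genes stand below the axis. Both bars have the same sign in each cluster except cluster 4, where both are near 0 (0.0042 and -0.0035).

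Cluster 2 held the densest run of lower calls, 8 of 14 tested genes. ZNF562 fell from 32.6, 34.5 and 33.9 CPM in the WT samples to 19.4, 18.8 and 18.1 CPM in the ARID1A-KO samples, with a log2 fold change of -0.84 ± 0.07 (SE) and an adjusted p of 2.61e-05. Its neighbour ZNF561, 83.9% identical in protein sequence, fell less, with a log2 fold change of -0.35 and an adjusted p of 0.00252. ZNF426 went from 18.4, 18.8 and 19.3 to 11.2, 10.8 and 10.9 CPM (log2 fold change -0.78 ± 0.08, adjusted p = 6.95e-05). All 3 genes are KRAB zinc finger genes that lie on the minus strand within a stretch where every tested ZNF gene but ZNF812 was called lower. ZNF121, the most highly expressed gene of the cluster and one without a KRAB box, fell from 76.5 ± 8.17 to 52.2 ± 1.54 CPM. ZNF699, the human relative of the fly gene hangover, was at 15.7, 15.2 and 13.3 CPM in WT and at 5.82, 5.57 and 7.31 CPM in ARID1A-KO cells, a 2.35-fold lower level (adjusted p = 9.38e-05).

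A pair of cluster 2 genes went the other way. ZNF559 rose from 3.31 ± 0.325 to 4.81 ± 0.293 CPM (adjusted p = 0.0107), although it is the next ZNF gene on from ZNF699. ZNF812 had 3, 1 and 0 counts in the WT samples and 16, 10 and 13 in the ARID1A-KO samples. Its ratio of summed counts, corrected for library totals, was 9.38 (95% exact interval 3.38 to 36.1, counting error only), and the gene stayed under 1 TPM in both genotypes. In cluster 3, 0 of 24 tested genes were called higher by edgeR or by DESeq2, and 0 at an unadjusted p under 0.05 in edgeR, while the 4 called lower were ZNF627, ZNF433, ZNF490 and ZNF791. ZNF791 went from 33.8, 32.1 and 30.0 to 22.4, 21.2 and 20.9 CPM (log2 fold change -0.57 ± 0.07, adjusted p = 0.000359). ZNF490, which overlaps ZNF791 on the opposite strand, fell from 1.92 ± 0.186 to 1.16 ± 0.113 CPM. ZNF433 was at 0.624 and 0.34 CPM (adjusted p = 0.022), a call that was lost with unstranded counts (adjusted p = 0.087) and with DESeq2 (adjusted p = 0.0728), and without WT replicate 3, WT replicate 5 or ARID1A-KO replicate 4 (adjusted p of 0.056 to 0.0834). In cluster 1, ZNF57 and ZNF77 fell, with log2 fold changes of -0.42 and -0.39.

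In cluster 4, 13 of the 15 tested genes were not called, which at these low levels does not show that they were unchanged. The log2 fold changes of the tested genes ranged from -0.66 (ZNF714) to 4.03 (ZNF730). At an unadjusted p under 0.05 in edgeR, 4 were higher and 2 lower. ZNF726 rose from 1.37 ± 0.172 to 2.01 ± 0.194 CPM (adjusted p = 0.0279), a call lost without WT replicate 3 or 5 or ARID1A-KO replicate 4 or 5 (adjusted p of 0.0524 to 0.103). ZNF730 had 2, 0 and 0 counts in WT and 11, 13 and 17 counts in ARID1A-KO cells, a ratio of 19.7 with a 95% exact interval of 5.12 to 168. The level reached was only 0.267 TPM. A same-strand transcript that overlaps it, CTD-2291D10.4, was at 0.0389 CPM in WT and 0.458 CPM in ARID1A-KO cells (adjusted p = 0.00067). ZNF91 was at 3.56 and 2.50 CPM, with an adjusted p of 0.0521. When the filter on low counts was dropped, edgeR called 0 of the 26 untested genes of this cluster, 17 of which had counts, and 1 had an unadjusted p under 0.05.

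In cluster 6, single genes stood out from quiet neighbours. ZNF585B fell while ZNF585A, its neighbour and near copy, did not pass the test. The encoded proteins are 94.5% identical, both with 21 fingers and a KRAB box. ZNF585B (chr19:37672481-37709055, minus strand) was at 4.33, 3.35 and 4.02 CPM in the WT samples and at 1.03, 1.09 and 1.12 CPM in the ARID1A-KO samples, so that no value overlapped. The log2 fold change was -1.85 ± 0.16 and the adjusted p was 3.33e-05. ZNF585A was at 6.19, 5.49 and 5.86 CPM in WT and 6.21, 6.06 and 6.19 CPM in ARID1A-KO cells (log2 fold change 0.074 ± 0.11, adjusted p = 0.62). Within each sample, the ratio of ZNF585B to ZNF585A was 0.665 ± 0.0482 (SD, n = 3) in WT and 0.176 ± 0.00894 in the knockout, with an exact two-sided permutation p of 0.1, the smallest that 3 against 3 samples can give. Reads from stretches that are the same in both genes cannot be assigned with certainty, and the sum of the pair was 9.75 ± 0.845 CPM in WT and 7.24 ± 0.0832 CPM in ARID1A-KO cells.

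The promoters of this pair are shown because the genes differed in response while sharing an origin. They are RefSeq sequences on GRCh38.p14, minus strand, at chr19:37172646-37172945 for ZNF585A and chr19:37210487-37210786 for ZNF585B, written 5′ to 3′ with CpG dinucleotides in capitals.
ZNF585A: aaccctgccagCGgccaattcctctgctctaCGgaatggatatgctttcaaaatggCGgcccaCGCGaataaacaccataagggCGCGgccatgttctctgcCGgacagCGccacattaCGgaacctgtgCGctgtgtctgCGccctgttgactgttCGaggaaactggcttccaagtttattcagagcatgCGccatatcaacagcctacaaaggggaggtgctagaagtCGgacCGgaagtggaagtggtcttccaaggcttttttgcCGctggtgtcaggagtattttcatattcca
ZNF585B: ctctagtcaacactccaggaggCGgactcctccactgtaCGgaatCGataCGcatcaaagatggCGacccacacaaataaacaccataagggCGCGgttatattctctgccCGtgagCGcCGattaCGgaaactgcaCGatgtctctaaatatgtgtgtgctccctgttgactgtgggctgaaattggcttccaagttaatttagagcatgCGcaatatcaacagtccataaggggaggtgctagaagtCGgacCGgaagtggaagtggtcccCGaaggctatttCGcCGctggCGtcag
Aligned end to end, they match at 71.9% of the columns, with 17 CpG dinucleotides in ZNF585A and 19 in ZNF585B. Both hold the ETS-family motif CCGGAAGT, and the YY1 motif ATGGCGGC was found in ZNF585A and not in ZNF585B.

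Besides ZNF585B, 4 genes of cluster 6 were called, all lower, and edgeR called 0 genes higher, as did DESeq2 and an unadjusted p under 0.05. ZNF566 went from 14.5 ± 1.56 to 8.30 ± 0.582 CPM and its neighbour ZNF260, a gene without a KRAB box that has been studied in heart cells, from 39.9 ± 4.58 to 25.4 ± 2.01 CPM (adjusted p = 0.000445 and 0.000801). ZNF382, a KRAB gene known for silencing by methylation in tumours, was low in both genotypes, at 0.310 and 0.128 CPM (log2 fold change -1.27 ± 0.29, adjusted p = 0.00842). ZNF850, which encodes 29 fingers, fell with a log2 fold change of -0.34. The other 20 tested genes of the cluster were not called, ZNF146 among them, at 156, 150 and 138 CPM in WT and 155, 146 and 150 CPM in ARID1A-KO cells. In clusters 5 and 7, ZNF30 and ZNF546 rose, with log2 fold changes of 0.36 and 0.65. The call of ZNF30 was lost without any 1 of 5 samples (all but WT replicate 4, adjusted p of 0.0775 to 0.147), and that of ZNF546 without WT replicate 5 or ARID1A-KO replicate 3 (0.0573 and 0.067).

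In cluster 8, 6 of 23 tested genes were called lower and 1 higher. ZNF404, at chr19:44376515-44405537 on the minus strand of GRCh37, was at 38.9, 30.7 and 28.8 CPM in the WT samples and at 11.5, 10.9 and 11.7 CPM in the ARID1A-KO samples. This 2.89-fold lower level (log2 fold change -1.53 ± 0.11, adjusted p = 1.85e-05) was seen in the gene with the fourth highest TPM of all chromosome 19 ZNF genes in WT cells, 58.4. A same-strand transcript that overlaps ZNF404, RP11-15A1.3, fell likewise, from 12.8 to 4.2 CPM (log2 fold change -1.60, adjusted p = 6.05e-05). ZNF283 and ZNF45, the neighbours on either side, fell as well, with log2 fold changes of -0.38 and -0.31. ZNF229 (chr19:44921685-44952766, minus strand) went from 0.285, 0.789 and 0.670 CPM to 0.103, 0.0910 and 0.0454 CPM (log2 fold change -2.89 ± 0.49, adjusted p = 0.0016). The WT values were uneven, but the highest ARID1A-KO value was below the lowest of WT. These are 114 counts over the 3 WT samples and 16 over the 3 ARID1A-KO samples, a ratio of 0.135 with a 95% exact interval of 0.0747 to 0.229.

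Between these falling genes lay ZNF235 (chr19:44732882-44809199, minus strand), the only gene of cluster 8 called higher. It was at 5.34, 5.85 and 5.09 CPM in WT and 12, 10.6 and 11.9 CPM in ARID1A-KO cells, a 2.13-fold rise (log2 fold change 1.09 ± 0.11, adjusted p = 6.96e-05). ZNF227, which overlaps it on the opposite strand, was at 25.9 CPM in WT and 26.0 CPM in ARID1A-KO cells. The next tested gene, ZNF112, was at 8.79 and 8.02 CPM. The 19 tested genes of cluster 8 other than ZNF229, ZNF404, ZNF235 and ZNF575 had log2 fold changes between -0.38 and 0.35. ZNF575, outside this range, was not called. It had 129 counts on its own strand over all samples and 4720 on the opposite strand.

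The promoters of ZNF229 and ZNF235 are shown as those of the genes of cluster 8 with the largest fall and the largest rise. They lie at chr19:44448423-44448722 and chr19:44304976-44305275 (RefSeq, GRCh38.p14, minus strand), again with CpG dinucleotides in capitals.
ZNF229: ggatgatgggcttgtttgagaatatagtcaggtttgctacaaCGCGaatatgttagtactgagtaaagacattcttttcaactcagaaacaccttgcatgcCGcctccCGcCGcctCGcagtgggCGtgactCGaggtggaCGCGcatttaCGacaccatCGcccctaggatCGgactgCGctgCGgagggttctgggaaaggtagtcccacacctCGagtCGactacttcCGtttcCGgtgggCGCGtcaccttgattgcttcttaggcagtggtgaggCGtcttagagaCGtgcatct
ZNF235: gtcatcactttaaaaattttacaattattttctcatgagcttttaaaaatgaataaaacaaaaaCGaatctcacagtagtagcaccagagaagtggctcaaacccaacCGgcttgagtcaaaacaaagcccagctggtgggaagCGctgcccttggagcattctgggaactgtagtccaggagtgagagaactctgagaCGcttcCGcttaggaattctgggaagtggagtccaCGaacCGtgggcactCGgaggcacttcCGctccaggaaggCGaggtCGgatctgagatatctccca
The first holds 23 CpG dinucleotides and the second 11. Neither contains the ETS, SP1 or YY1 motif, and ZNF235 contains a match to the AP1 motif TGANTCA. That motif was found in 6.42% of the ZNF promoters of chromosome 19 and 6.15% of protein-coding promoters.

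In clusters 9 and 10 the changes were small, and 28 of the 95 tested genes were called (29.5%), beside the background of 36.2%. None of the 95 tested genes reached a 2-fold change. ZNF137P, a pseudogene by name, rose from 0.674, 0.747 and 0.790 to 1.32, 1.22 and 1.45 CPM (log2 fold change 0.86 ± 0.17, adjusted p = 0.00422). ZNF548 went from 11.8, 12.9 and 11 to 20, 19.3 and 15.6 CPM (log2 fold change 0.62 ± 0.11, adjusted p = 0.0025), while the genes on either side, ZNF547 and ZNF17, had log2 fold changes of 0.050 and -0.045. ZNF587B rose from 16.7 ± 1.23 to 24.4 ± 1.11 CPM (adjusted p = 0.000826). On the same strand it overlaps ZNF587, which fell from 49.2 to 40.2 CPM (adjusted p = 0.0084). Whether reads shifted between the 2 genes was not tested. ZNF542 rose from 149 ± 16.2 to 196 ± 14.6 CPM, the largest gain in CPM among the ZNF genes, at a log2 fold change of 0.39 ± 0.09 (adjusted p = 0.00798). ZNF835 and ZNF701 rose 1.51-fold and 1.46-fold, but the call of ZNF835 was lost without any 1 of 5 samples (all but ARID1A-KO replicate 4, adjusted p of up to 0.0751) and that of ZNF701 without WT replicate 4 or 5 or ARID1A-KO replicate 3 or 5 (up to 0.0849). The 3 genes called lower here were ZNF528, ZNF331 and ZNF587, with log2 fold changes of -0.38, -0.27 and -0.29. ZNF331 is an imprinted gene.

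Outside the clusters, ZNF114 (chr19:48675575-48790865, plus strand) rose from 3.66, 4.16 and 3.11 CPM to 7.20, 8.10 and 15.5 CPM (log2 fold change 1.5 ± 0.27, adjusted p = 0.00253). The genotypes did not overlap, but replicate 5 of ARID1A-KO stood farther above the other ARID1A-KO samples than these stood above WT, and without it the log2 fold change was 1.07 (adjusted p = 0.000815). CARD8, which overlaps it on the opposite strand, rose from 21.5 to 29.9 CPM.

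Some of these genes have known partners or targets, and they were singled out after their values were seen. ZNF274, which brings TRIM28 and SETDB1 to the 3' ends of zinc finger genes, rose from 34.4, 36.8 and 36.1 to 48.1, 47.9 and 48.7 CPM (log2 fold change 0.43 ± 0.06, adjusted p = 0.000536). ZNF587 and ZNF417, repressors of HERV-K elements with 98.1% identical proteins, were at 49.2 and 14 CPM in WT and 40.2 and 12.4 CPM in ARID1A-KO cells, and only ZNF587 passed the test (adjusted p = 0.0084, against 0.219). Their ratio of 0.283 ± 0.0204 in WT and 0.309 ± 0.0124 in ARID1A-KO cells gave an exact two-sided permutation p of 0.2, and reads shared between them cannot be assigned with certainty. ZNF587 also overlaps ZNF587B, which rose, on the same strand. ZNF611, which binds SVA elements, rose with a log2 fold change of 0.36 (adjusted p = 0.00379). Of the genes linked to genome maintenance, the telomere-binding ZNF524 rose from 9.09 to 12.9 CPM (adjusted p = 0.00331). ZNF350, a partner of BRCA1, and ZNF432, a factor that responds to DNA lesions, had log2 fold changes of 0.13 and 0.068 (adjusted p = 0.379 and 0.642). ZNF506, a gene tied to DSB repair, had no count on its own strand in any sample, and 333 on the opposite strand, but it overlaps 2 genes on the same strand, so that its reads can be left uncounted.

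The 2 central genes of KRAB repression did not pass the test. TRIM28 was at 338 ± 15.4 CPM in WT and 332 ± 10.6 CPM in ARID1A-KO cells (adjusted p = 0.801), and SETDB1 at 44.3 ± 2.83 and 41.9 ± 1.25 CPM (adjusted p = 0.403). Of the 22 genes of the TRIM28 corepressor list, all tested, 1 was called higher and 7 lower, 36.4% in all, beside the background of 36.2%. The genes that fell include UHRF1 (log2 fold change -0.57 ± 0.08) and DNMT1 (log2 fold change -0.43 ± 0.06), which maintain DNA methylation. DNMT1 lies on chromosome 19 between clusters 2 and 3 and TRIM28 just past cluster 10, and with the median of their neighbours taken off their log2 fold changes were -0.15 (adjusted p = 0.0972) and -0.25 (adjusted p = 0.014). ATRX, SUV39H2 and CBX1 fell with log2 fold changes of -0.38, -0.37 and -0.35. The gene called higher was MORC3, from 9.29 to 11.4 CPM, a call lost without WT replicate 4 or 5 or ARID1A-KO replicate 3 or 4.

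Protein and promoter features were set beside the calls, as a description with no test. Among genes with a coding sequence, a KRAB A box was found in 25 of 28 called higher, 25 of 27 called lower and 125 of 151 tested but not called. Their medians were 11, 13 and 12 fingers. The median number of CpG dinucleotides in the promoter was 22, 21 and 21, while it was 14 for the 31 untested genes with a promoter. The ETS motif was present in 24.0% of promoters of genes called higher, 14.3% of those called lower and 23.9% of those not called. By KRAB status, 50 of 175 tested genes with a KRAB A box and 5 of 31 without one were called, 28.6% and 16.1%, both under the background of 36.2%.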

How the data were processed

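RNA-seq gene tables of 3 WT and 3 ARID1A-KO samples were used. Paired reads had been aligned to GRCh37 by the authors (STAR, run within Roddy). The deposited counts are whole numbers of read pairs per gene made with featureCounts, unstranded and by strand, and beside them the authors deposited TPM values scaled to autosomal genes. The reverse-stranded columns were used.

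All genes were filtered with filterByExpr, TMM-normalized and compared with the quasi-likelihood test of edgeR 4.0.16 (R 4.3.3) with Benjamini-Hochberg adjustment over 19599 genes. A gene with an adjusted p under 0.05 is called higher or lower in ARID1A-KO. Log2 fold changes carry SE, CPM and TPM carry SD (n = 3). Depth (54512105 to 84088708 counts) makes counting error small except for genes with few counts. No 2 samples agreed within sampling noise. On simulated data for this comparison (19302 genes), edgeR recovered 27 of 65 genes changed by 0.5 on the log2 scale, 51 of 65 changed by 1 and 65 of 66 changed by 2, with 13 false calls among 19106 unchanged genes. The simulation changed only 200 genes, while 36.2% of tested genes were called in the data. These rates therefore need not hold for the data.

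The ZNF genes, lists and tests were chosen with earlier results of these data known. Named genes are the called genes without overlap between genotypes with the 10 largest rises and 10 largest falls at a mean log2 CPM over 0, the largest change of each cluster, the 5 highest TPM, ARID1A and, of the corepressor list, TRIM28, SETDB1 and 5 called genes; others are named where counts are small. Fingers (C, 2 to 4 residues, C, 12, H, 3 to 5, H) and KRAB A boxes were searched by pattern in coding sequences of GENCODE for GRCh37, translated here in place of RefSeq proteins, and compared with BLAST+ 2.17.0. RefSeq promoters are on GRCh38.p14.

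The alternatives were unstranded counts, RLE, DESeq2 1.42.0, other filters, the replicate block, an adjusted p under 0.01, loess offsets on length and GC content, a regional offset, each sample left out, names ending in P left out, other gaps between clusters, and other TPM thresholds.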

Additional observations from a re-analysis of the deposited data

Results flagged for a closer look

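The counts on the strand opposite to the ZNF genes were not used above. Among genes with at least 100 such counts over the 6 samples, they were higher in every ARID1A-KO sample than in every WT sample, by 1.5 times or more per reverse-stranded library total, for 7 ZNF genes. The share of all genes that meet this rule and the number of falls are not given here. The 7 are therefore not read as an excess. On their own strand, 49.5% of all tested genes had no overlap between genotypes, in either direction. The ratio of the means was 2.71 for ZNF227, 2.41 for ZNF790, 1.92 for ZNF432, 1.79 for ZNF446, 1.77 for ZNF552, 1.71 for ZNF324 and 1.503 for ZNF233. ZNF227 and ZNF233 lie opposite ZNF235, which was called higher. Levels in the ZNF227 span were between 0.735 and 1.04 CPM in WT and between 2.25 and 2.68 CPM in ARID1A-KO cells.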

How the results depend on the processing

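Of the 61 calls, 22 kept their direction and their side of the threshold in every refit, and 36 did so in all 6 refits that left out a sample. The number of genes called higher was 33, and 17 with the regional median taken off, 14 at an adjusted p under 0.01, and 21 to 31 with a sample left out, the 21 being without WT replicate 5 or without ARID1A-KO replicate 3. The number called lower was 28, and 18 at an adjusted p under 0.01. The offset on GC content gave 45 higher and 28 lower. With the regional median taken off, the medians of clusters 1 to 10 were -0.25, -0.057, 0.040, 0.45, 0.029, -0.20, -0.10, -0.25, -0.092 and -0.039. The offset on GC content gave 0.098, 0.012, -0.063 and 0.21 for clusters 4, 6, 8 and 9, and the offset on length gave -0.23 and -0.16 for clusters 1 and 8. No filter gave 0.015 and 0.14 for clusters 1 and 4, and a gap of 2 Mb joined clusters 5 and 7 to others, with medians of -0.043 and -0.100. With a sample left out, the medians ranged from -0.23 to -0.18 in cluster 1, -0.32 to -0.23 in cluster 3, -0.023 to 0.17 in cluster 4, -0.17 to -0.041 in cluster 6, -0.14 to -0.059 in cluster 8, 0.088 to 0.18 in cluster 9 and 0.17 to 0.22 in cluster 10.

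Of the corepressor list, 0 genes were called higher without a filter or at an adjusted p under 0.01, 3 with the GC offset, 2 with the regional offset and 0 to 1 with a sample left out. Of ZNF genes of other chromosomes, 28 were called higher at an adjusted p under 0.01 and 35 to 53 with a sample left out, the 35 without ARID1A-KO replicate 4. Of other zinc finger genes of chromosome 19, 5 were called higher with unstranded counts, 1 with the length offset, the regional offset or an adjusted p under 0.01, and 1 to 2 with a sample left out. The uncalled log2 fold change of ZNF146 turned to -0.0069 with the length offset, -0.12 with the regional offset and -0.027 without WT replicate 5 (-0.027 to 0.054 with a sample left out), that of ZNF317 to 0.11 with the regional offset, that of ZNF428 to 0.011 with unstranded counts and 0.0025 without ARID1A-KO replicate 3 (-0.19 to 0.0025), and that of TRIM28 to 0.010 without WT replicate 5 (-0.061 to 0.010). TRIM28 was called lower with the GC offset (log2 fold change -0.20, adjusted p = 0.0363) and the regional offset (-0.25, 0.014). The causes were not tested. The deviations of same-numbered samples from their genotype means had correlations of -0.18, 0.27 and 0.18. Deviations from a mean of 3 samples depend on each other, so these values cannot decide whether such samples share more than a number. With the replicate block, 36 ZNF genes were called higher and 30 lower, and 60 of the 61 calls were shared.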
